A study of Mus musculus with 18 samples.

Results

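A set of 9 genes that handle vitamin A in the intestine (Rbp2, Isx, Bco1, Scarb1, Lrat, Aldh1a1, Aldh1a2, Rdh7 and Dhrs3) was followed across unirradiated and irradiated mouse jejunum. They are a list of intestinal vitamin A genes, and each symbol was matched to its Ensembl gene in the count table. All 9 were found among 54532 genes, and 9 of 9 passed the filter on low counts that left 16257 genes for testing. RNA came from whole jejunum of mice of the inbred strain C57BL/6, aged 8 to 12 weeks and carrying no named transgene or deletion. One group of mice received a single dose of 15 Gy to the whole abdomen at an ultra-high dose rate (FLASH, 7 libraries). Another received the same dose at a conventional dose rate (CONV, 5 libraries). Both were sampled 16 h after irradiation, and mice given no radiation served as controls (6 libraries). Whether every library stands for a separate mouse is not in the labels, and p-values therefore reflect only how much these libraries vary.

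Vitamin A reaches the gut as retinyl esters and as provitamin A carotenoids. Carotenoids enter enterocytes partly through the scavenger receptor SR-B1 (gene Scarb1) and are cleaved to retinal by beta-carotene oxygenase 1 (Bco1). The homeobox factor ISX is induced by retinoic acid and represses Scarb1 and Bco1, which closes a feedback loop on uptake. Retinal is reduced to retinol, retinol is carried in the enterocyte by cellular retinol-binding protein 2 (Rbp2), and lecithin:retinol acyltransferase (Lrat) esterifies it for export in chylomicrons. In the opposite direction, retinol dehydrogenases such as Rdh7 make retinal, the reductase Dhrs3 turns it back to retinol, and the retinal dehydrogenases Aldh1a1 and Aldh1a2 oxidise it to retinoic acid. Retinoic acid made by epithelium, stroma and dendritic cells gives lymphocytes their gut-homing receptors.

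The promoters of Bco1 and Rbp2 are shown because both genes were higher after FLASH than in controls and both windows carry letters that nuclear receptors bind. Each sequence runs from 250 bases before to 50 bases after the RefSeq start (build GRCm38.p6) and is printed 5′ to 3′ on the gene's strand. Capitals mark TGACCT, which is the half-site AGGTCA read from the other strand.
Bco1, chr8:117095615-117095914, plus strand: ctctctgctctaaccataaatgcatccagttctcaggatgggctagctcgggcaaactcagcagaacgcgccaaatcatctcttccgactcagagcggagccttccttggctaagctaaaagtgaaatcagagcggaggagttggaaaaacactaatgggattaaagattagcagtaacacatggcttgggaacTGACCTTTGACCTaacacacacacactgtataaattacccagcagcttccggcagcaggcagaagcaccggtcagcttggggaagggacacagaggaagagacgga
Rbp2, chr9:98490287-98490586, plus strand: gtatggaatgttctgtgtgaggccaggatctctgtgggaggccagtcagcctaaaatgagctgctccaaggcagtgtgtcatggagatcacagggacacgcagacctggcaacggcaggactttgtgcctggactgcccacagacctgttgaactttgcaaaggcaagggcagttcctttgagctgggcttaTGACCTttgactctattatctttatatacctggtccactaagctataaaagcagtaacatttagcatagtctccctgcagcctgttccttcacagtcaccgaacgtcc
In the Bco1 window 2 half-sites stand as a direct repeat with 1 base between them, starting 56 bases before the RefSeq start. For Bco1 too, that start is not the first base given below. The Rbp2 window holds 1 half-site, 58 bases before the RefSeq start of Rbp2. That start lies inside the gene as GENCODE places it (98486115 to 98509781), so it is not the first base given for Rbp2 below. AGGTCA was searched on both strands, alone and as 2 copies with 1 or 5 bases (N) between them, so a repeat also counts as a half-site. Of 32851 RefSeq windows of the same length, 16.3% held a half-site, 0.0396% the repeat with 1 base between and 0.00913% the repeat with 5. Windows were found for 8 of the 9 genes, all but Scarb1. An Rdh7 window (1 of 2) held 1 half-site, 105 bases before its RefSeq start, and those of Isx, Lrat, Aldh1a1, Aldh1a2 and Dhrs3 held none. No window of these genes held the homeodomain letters TAATTA, which 5.29% of all windows did. These matches describe letters in a window and were not tested for binding.

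Control libraries held 24.3 to 27.8 M estimated counts, CONV libraries 19.9 to 27.0 M and FLASH libraries 23.1 to 30.2 M. Libraries varied with transcript length inside every group, and the slope of each library's log2 CPM, taken relative to each gene's mean, on log2 transcript length was most negative in control 6 (-0.44), CONV 6 (-0.46) and FLASH 1 (-0.36), against -0.34 (CONV 2) to 0.34 in the others. Control 6 also held the highest control level of 6 of the genes below, Rbp2, Isx, Bco1, Lrat, Aldh1a1 and Rdh7. Values without that library are given beside results that it moves.

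Levels are given in CPM, estimated counts divided by the library's size in M after TMM scaling. Differences are log2 fold changes ± SE from the edgeR quasi-likelihood test, with p-values adjusted by Benjamini-Hochberg over all 16257 genes and a threshold of 0.05. In CONV against control, 3 of the 9 genes rose (Rbp2, Isx and Aldh1a1), 0 fell and 6 did not pass; over all genes 22.2% passed, 10.2% higher and 12.0% lower. In FLASH against control, 5 rose (Rbp2, Isx, Bco1, Aldh1a1 and Dhrs3), 2 fell (Lrat and Aldh1a2) and 2 did not pass (Scarb1 and Rdh7); over all genes 37.7% passed, 16.7% higher and 21.0% lower. In FLASH against CONV, 1 gene passed (Scarb1, higher) and 8 did not, where 19.8% of all genes passed, 9.88% higher and 9.91% lower. By edgeR at an unadjusted p under 0.05, 4 were higher and 2 lower in CONV than in control, 5 and 2 in FLASH than in control, and 3 and 2 in FLASH than in CONV. With library totals in place of TMM factors, 2 were higher and 1 lower (Scarb1) in CONV than in control, and 0 higher and 2 lower (Lrat and Aldh1a2) in FLASH than in CONV. With an offset for transcript length these were 2 and 2, and 3 and 1. Without control 6 the number that passed in CONV against control was 6. In FLASH against CONV it moved between 0 and 5 as single libraries were left out, with 5 without control 6 and 0 without control 3 or 4, CONV 3, 5 or 7 or FLASH 1, 2, 7 or 9. The median log2 difference of the 9 genes was 0.72, 0.65 and 0.13 in these comparisons, against -0.04, -0.07 and -0.02 over all genes tested. The first 2 comparisons share their control libraries, so their values stand side by side and are not independent of each other. The number of genes whose library values did not overlap between groups was 2 (both higher) for CONV against control, where over all genes 10.4% did not overlap, 5.46% higher and 4.95% lower. It was 5 for FLASH against control (3 higher and 2 lower), beside 13.8% of all genes (6.93% higher, 6.86% lower). It was 2 for FLASH against CONV (both higher), beside 8.53% of all genes (4.08% higher, 4.45% lower).

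**Figure D1:**
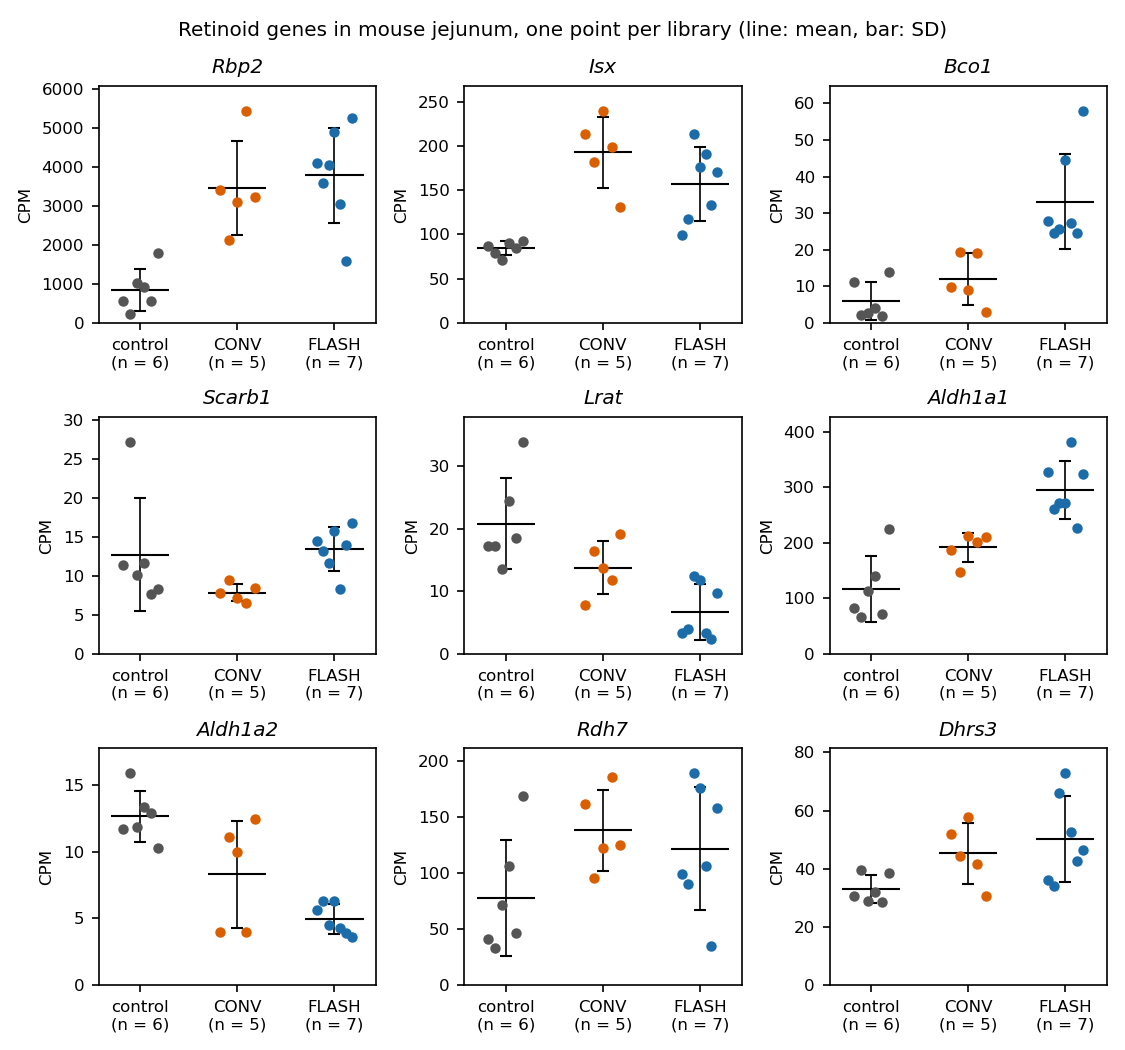
Level of each of the 9 genes in CPM (vertical axis, from 0) in control, CONV and FLASH libraries, 1 point per library, with the mean as a line and the SD as a bar. Rbp2 and Isx stand higher in both irradiated groups, Bco1 and Aldh1a1 are highest in FLASH, and Lrat and Aldh1a2 are lowest in FLASH.

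Scarb1 encodes the receptor through which carotenoids and cholesterol enter the brush border. It lies on chr5 from 125277087 to 125341094 on the minus strand (mm10, GENCODE M21). In controls its lowest, median and highest levels were 7.71, 10.8 and 27.1 CPM. The 5 CONV libraries (2, 3, 5, 6 and 7) held 7.75, 9.45, 7.15, 6.55 and 8.41 CPM, and FLASH libraries 8.33, 13.9 and 16.8 CPM (lowest, median and highest). All 3 groups overlapped, and control 2 stood far above the other controls. Scarb1 was higher in FLASH than in CONV by 0.77 ± 0.27 on the log2 scale (1.71-fold, adjusted p = 0.0489), close to the threshold. That call was lost when any one of control 3 and 4, CONV 2, 3, 5, 6 and 7 or FLASH 1, 2, 5, 7 and 9 was left out (log2 differences from 0.71 to 0.85, adjusted p from 0.0555 to 0.105). Against control the difference was -0.69 ± 0.27 in CONV (adjusted p = 0.0747) and 0.08 ± 0.25 in FLASH (adjusted p = 0.821). Without control 6 the CONV difference passed (-0.79, adjusted p = 0.0300), and without control 2 the FLASH difference passed (0.48, adjusted p = 0.0447). Without control 6 the FLASH difference was -0.02.

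Bco1, the enzyme that splits beta-carotene, lies on chr8 from 117095854 to 117133720 on the plus strand. Control libraries held 1.79 (lowest), 3.40 (median) and 13.9 (highest) CPM, the last in control 6. CONV libraries held 9.95, 19.4, 8.93, 19.2 and 3.09 CPM, and FLASH libraries 24.6, 27.2 and 57.8 CPM (lowest, median and highest). Every FLASH library lay above every control and every CONV library, whereas CONV and control overlapped. Bco1 rose in FLASH against control by 2.48 ± 0.50 (5.56-fold, adjusted p = 9.1e-04), with means of 5.96 ± 5.20 CPM (SD, n = 6) and 33.2 ± 12.9 CPM (n = 7); without control 6 the rise was 2.92. The difference in CONV against control was 1.02 ± 0.52 (adjusted p = 0.150), and it passed without control 6 (1.46, adjusted p = 0.0275). FLASH and CONV differed by 1.46 ± 0.52 (95% confidence interval 0.38 to 2.54), which missed the threshold (adjusted p = 0.0532). It passed without control 1, 2, 5 or 6 or FLASH 4 (log2 differences from 1.46 to 1.55, adjusted p from 0.0292 to 0.0463), and with the DESeq2 Wald test (adjusted p = 0.0135). Its estimated counts per library were 60.0 to 380 in controls, 87.0 to 555 in CONV and 577 to 1428 in FLASH.

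Isx, the homeobox repressor of both uptake genes, lies on chr8 from 74873173 to 74893506 on the plus strand. It was the tightest of the 9 genes in controls, at 71.3 (lowest), 86.2 (median) and 92.4 (highest) CPM. CONV libraries held 213, 182, 239, 199 and 131 CPM, and FLASH libraries 99.4, 170 and 213 CPM (lowest, median and highest). All irradiated libraries lay above all controls, and the irradiated groups overlapped each other. Isx rose by 1.19 ± 0.19 in CONV (2.29-fold, adjusted p = 3.7e-04) and by 0.90 ± 0.18 in FLASH (1.86-fold, adjusted p = 6.6e-04). FLASH against CONV was -0.30 ± 0.18 (95% confidence interval -0.68 to 0.09, adjusted p = 0.266), so a difference of up to 0.68 in favour of CONV lies inside the interval. In these libraries the repressor and Bco1 were both higher after FLASH than in controls, and Scarb1 did not pass against control in either group.

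Because ISX represses Bco1 and Scarb1, their levels were related within groups of at least 6 libraries, on log2 CPM with a two-sided exact permutation test over all pairings. Isx and Bco1 had Pearson r = 0.59 in controls (exact permutation p = 0.203) with Spearman rho = 0.71 (exact permutation p = 0.136). In FLASH their r was 0.29 (exact permutation p = 0.530) and their rho 0.14 (exact permutation p = 0.783). Neither relation, nor those below, passed, with adjusted p = 0.530 for each of the 4 relations. Isx and Scarb1 had r = -0.33 in controls (exact permutation p = 0.528; rho = -0.14, exact permutation p = 0.803) and r = -0.36 in FLASH (exact permutation p = 0.455; rho = -0.39, exact permutation p = 0.396). Without the 2 libraries farthest from the median of Isx, r for Bco1 was 0.60 in controls (without control 2 and 3) and -4.5e-03 in FLASH (without FLASH 1 and 2). For Scarb1 it was 0.18 in controls and -0.44 in FLASH. The 5 CONV libraries are too few for this.

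Rbp2, the retinol carrier of the enterocyte, lies on chr9 from 98486115 to 98509781 on the plus strand. Control libraries held 241 (lowest), 748 (median) and 1791 (highest) CPM, the last in control 6. CONV libraries held 3414, 2119, 3111, 5429 and 3235 CPM, and FLASH libraries 1602, 4048 and 5247 CPM (lowest, median and highest). Every CONV library lay above every control, and in FLASH only library 7 fell within the control range, below control 6. Rbp2 rose by 2.03 ± 0.39 in CONV (4.07-fold, adjusted p = 0.00177) and by 2.16 ± 0.38 in FLASH (4.46-fold, adjusted p = 2.4e-04). Without control 6 these rises were 2.39 and 2.52. FLASH against CONV was 0.13 ± 0.37 (95% confidence interval -0.65 to 0.91, adjusted p = 0.841). In whole tissue a change in the number of cells that make a transcript and a change in its amount per cell cannot be told apart. Some genes that mark villus enterocytes moved beside Rbp2: of 10 markers, 5 rose in CONV and 7 in FLASH and 0 fell. Lct, Vil1 and Anpep passed in neither, and Alpi and Slc5a1 did not pass in CONV. The summed level of the 10 was 18543 to 41952 CPM in controls (median 31707). It was 55293 to 102085 CPM in CONV (median 66317) and 57554 to 100413 CPM in FLASH (median 84193). Most of the sum in both irradiated groups was Apoa1, Apoa4 and Fabp2 (FLASH means of 22057, 31786 and 8416 CPM). Control 6 had the highest sum of the controls and FLASH 7 the lowest of the FLASH libraries, as for Rbp2. The part of villus enterocyte RNA in the Rbp2 result was not tested.

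Lrat, which esterifies retinol, lies on chr3 from 82892579 to 82903973 on the minus strand. Control libraries held 13.6 (lowest), 18 (median) and 33.8 (highest) CPM. CONV libraries held 7.85, 16.4, 13.8, 11.9 and 19.1 CPM, and FLASH libraries 2.38, 3.97 and 12.5 CPM (lowest, median and highest). All FLASH libraries lay below all controls, and CONV overlapped both groups. FLASH split into libraries 1, 2, 6 and 7 (3.41, 3.97, 3.28 and 2.38 CPM) and libraries 4, 5 and 9 (12.5, 11.9 and 9.76 CPM), the latter within the CONV range. Lrat fell by 1.63 ± 0.37 in FLASH against control (3.10-fold, adjusted p = 0.00219), from 20.8 ± 7.26 CPM (SD, n = 6) to 6.74 ± 4.44 CPM (n = 7); without control 6 the difference was -1.44. It was -0.59 ± 0.40 in CONV against control (adjusted p = 0.277). FLASH against CONV was -1.04 ± 0.38 (95% confidence interval -1.84 to -0.23), which missed the threshold (adjusted p = 0.0629). It passed without control 6 (-1.04, adjusted p = 0.0487), FLASH 4 (-1.23, adjusted p = 0.0273) or FLASH 5 (-1.23, adjusted p = 0.0329). Thus the carrier and this esterifying enzyme went opposite ways in FLASH: Rbp2 up and Lrat down against the same controls.

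**Figure D2:**
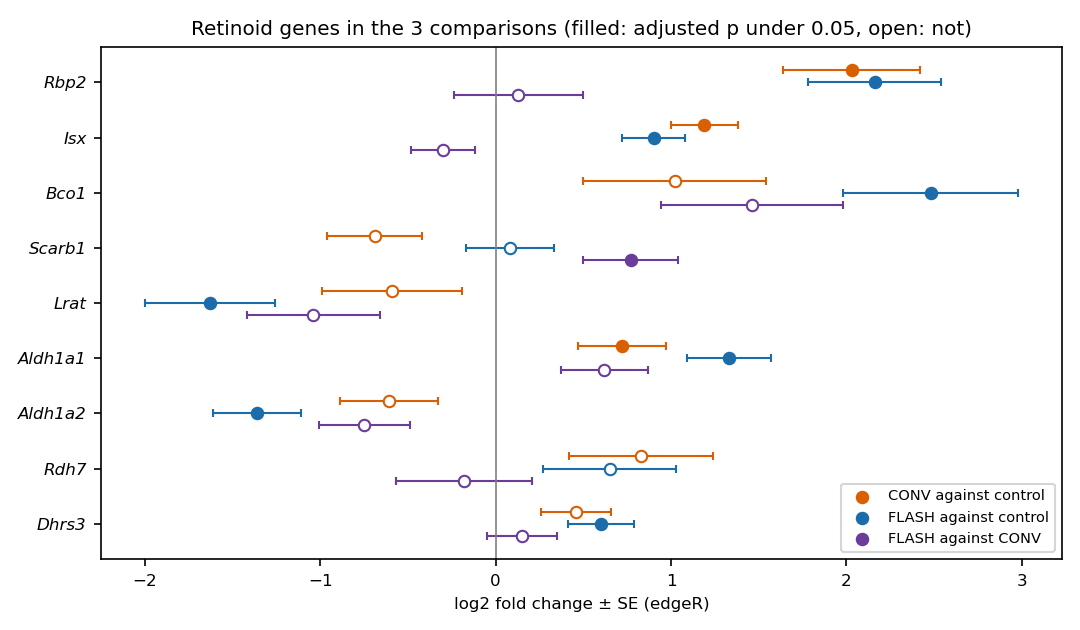
Log2 fold change of each gene (horizontal axis, bars are SE) in CONV against control, FLASH against control and FLASH against CONV. Filled points passed an adjusted p of 0.05: Rbp2 and Isx stand to the right of 0 in both comparisons with control, and Lrat and Aldh1a2 to the left in FLASH against control.

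Rdh7, a microsomal retinol dehydrogenase, lies on chr10 from 127884028 to 127888817 on the minus strand. Its levels were 32.9, 58.7 and 169 CPM in controls (lowest, median and highest, the last in control 6). CONV libraries held 162, 95.3, 122, 186 and 125 CPM, and FLASH libraries 35.0, 106 and 189 CPM (lowest, median and highest). The groups overlapped, with the widest range in FLASH. The differences were 0.83 ± 0.41 in CONV (adjusted p = 0.141) and 0.65 ± 0.38 in FLASH (adjusted p = 0.189) against control. Without control 6 both passed, at 1.21 (adjusted p = 0.0171) and 1.03 (adjusted p = 0.0241). FLASH against CONV was -0.18 ± 0.39 (95% confidence interval -1.0 to 0.64, adjusted p = 0.789). Of the 100-base windows of its transcripts, 65 of 1604 (4.05%) also occur in transcripts of related genes (Hsd17b6, Rdh1, Rdh16f1, Rdh18-ps and Rdh19), so some of its reads may be shared with them.

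Dhrs3, which reduces retinal to retinol and is itself induced by retinoic acid, lies on chr4 from 144892827 to 144928209 on the plus strand. Control libraries held 28.5 (lowest), 31.3 (median) and 39.6 (highest) CPM. CONV libraries held 52.0, 44.3, 57.9, 41.6 and 30.6 CPM, and FLASH libraries 34.1, 46.5 and 72.8 CPM (lowest, median and highest). Only CONV 7 of the CONV libraries lay within the control range, and FLASH overlapped the controls at its low end. Dhrs3 rose in FLASH by 0.60 ± 0.19 (1.52-fold, adjusted p = 0.0166). That call was lost with library totals in place of TMM factors (0.24, adjusted p = 0.332) and with an offset for transcript length (0.43, adjusted p = 0.118). In CONV the difference was 0.46 ± 0.20 (adjusted p = 0.104), and FLASH against CONV was 0.15 ± 0.20 (95% confidence interval -0.26 to 0.56, adjusted p = 0.639).

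Aldh1a1, the retinal dehydrogenase of the epithelium, lies on chr19 from 20492715 to 20643465 on the plus strand. Control libraries held 66.6 (lowest), 98.4 (median) and 225 (highest) CPM, the last in control 6. CONV libraries held 188, 148, 212, 202 and 210 CPM, and FLASH libraries 226, 272 and 381 CPM (lowest, median and highest). All FLASH libraries lay above all CONV and all control libraries, by a small margin over control 6. Aldh1a1 rose in FLASH by 1.33 ± 0.24 (2.52-fold, adjusted p = 3.2e-04), from 117 ± 59.8 CPM (SD, n = 6) to 295 ± 51.9 CPM (n = 7); without control 6 the rise was 1.63. In CONV it rose by 0.72 ± 0.25 (1.64-fold, adjusted p = 0.0493), just inside the threshold. That CONV call was lost when any one of control 1 to 5, CONV 2, 5, 6 and 7 or FLASH 1, 2, 4, 5, 6 and 9 was left out (log2 differences from 0.58 to 0.77, adjusted p from 0.0509 to 0.130). Without control 6 it was larger (1.01, adjusted p = 0.00123). FLASH against CONV was 0.62 ± 0.25 (95% confidence interval 0.10 to 1.14), which missed the threshold (adjusted p = 0.0866). It passed without control 6 (0.62, adjusted p = 0.0214) and with only these 2 groups in the fit (0.63, adjusted p = 0.0138). Of 4934 windows of 100 bases in its transcripts, 1 also occurs in Aldh1a7.

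Aldh1a2, the retinal dehydrogenase of stromal, mesothelial and dendritic cells, lies on chr9 from 71215789 to 71296243 on the plus strand. Control libraries held 10.3 (lowest), 12.4 (median) and 15.9 (highest) CPM. CONV libraries held 3.98, 11.1, 9.98, 3.97 and 12.5 CPM, and FLASH libraries 3.60, 4.49 and 6.33 CPM (lowest, median and highest). CONV split into a low pair (2 and 6), level with FLASH, and 3 libraries at or near the control range, while all FLASH libraries lay below all controls. Aldh1a2 fell in FLASH by 1.36 ± 0.25 (2.57-fold, adjusted p = 4.2e-04), from 12.7 ± 1.91 CPM (SD, n = 6) to 4.94 ± 1.14 CPM (n = 7). In CONV the difference was -0.61 ± 0.28 (adjusted p = 0.113). FLASH against CONV was -0.75 ± 0.26 (95% confidence interval -1.31 to -0.20, adjusted p = 0.0511). It passed without CONV 2 (-0.93, adjusted p = 0.0202), CONV 6 (-0.93, adjusted p = 0.0167), control 6 (-0.75, adjusted p = 0.0448) or FLASH 5 (-0.82, adjusted p = 0.0443). The pair of genes that make retinoic acid therefore went opposite ways in FLASH against control, Aldh1a1 up and Aldh1a2 down.

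Some markers of dendritic cells and fibroblasts, in which Aldh1a2 is known, fell in both irradiated groups. Aldh1a2 itself passed against control in FLASH only. Of 9 dendritic cell markers, 6 fell in CONV and 7 in FLASH and 0 rose, and their summed level was 35.3 to 83.9 CPM in controls (median 60.6), 15.5 to 26.8 CPM in CONV (median 19.5) and 19.3 to 40.4 CPM in FLASH (median 24.2). Of 6 fibroblast markers, 3 fell in CONV and 4 in FLASH, with sums of 230 to 1046 CPM, 97.5 to 330 CPM and 170 to 304 CPM in control, CONV and FLASH. The collagen genes Col1a1, Col1a2 and Col3a1 fell in both groups and Lum in FLASH only. Pdgfra (-0.56 in CONV and -0.17 in FLASH) and Dcn (-0.48 and -0.34) passed in neither. The dendritic cell sum was lower in CONV than in FLASH at the median, but it held mostly Itgax and Itgae (control means of 21.2 and 24.2 CPM). Single dendritic cell markers split in FLASH against CONV by edgeR: 1 passed higher (Flt3, 1.40, adjusted p = 0.0255) and 1 lower (Clec9a, -1.39, adjusted p = 0.0498), and 7 did not pass. Both rest on few estimated counts per library. Flt3 held 2 to 15 in CONV and 16 to 44 in FLASH, and Clec9a 2 to 14 and 1 to 6. Smooth muscle markers fell too, 3 of 6 in CONV and 6 of 6 in FLASH. The mesothelial sum held almost only Krt19, which epithelium also expresses (Wt1 was at most 0.299 CPM in any library), and by edgeR 0 of its 4 tested markers passed in any comparison, also at an unadjusted p under 0.05. Crypt base stem cell markers fell as well, 4 of 6 in CONV and 6 of 6 in FLASH. Their sum was 670 to 1144 CPM in controls, 64.4 to 166 CPM in CONV and 60.8 to 135 CPM in FLASH. Most of the control sum was Olfm4 (mean 762 CPM), which fell 24.4-fold in CONV and 15.4-fold in FLASH. In CONV Smoc2 fell 1.72-fold, and Ascl2 (-0.17) and Axin2 (-1.01) did not pass. The part of any of these cell types in the results for Aldh1a2 and Lrat was not tested. Exocrine pancreas markers summed to at most 0.343 CPM in any library, with Cpa1 at 0 throughout.

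**Figure D3:**
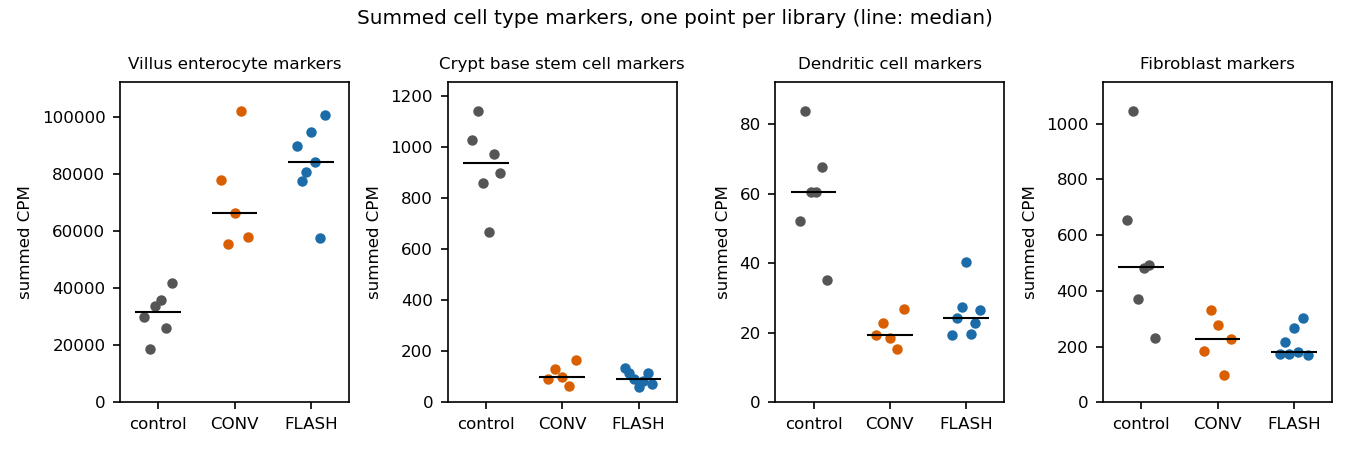
Summed level in CPM (vertical axis, from 0) of the markers of villus enterocytes, crypt base stem cells, dendritic cells and fibroblasts, 1 point per library and the median as a line. Villus markers stand higher in both irradiated groups than in controls, and crypt and dendritic markers lower, apart from 1 FLASH library whose dendritic markers, at 40.4 CPM, lie within the control range.

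Levels were compared between genes per kb of transcript (CPM divided by the mean length of the gene's transcripts). In controls Rbp2 led at 1223 ± 774 CPM per kb (SD, n = 6). Isx (59.8 ± 5.67), Aldh1a1 (53.0 ± 27.1) and Rdh7 (46.4 ± 31.0) followed without separating from each other in CPM per kb. Dhrs3 stood at 20.1 ± 2.94 CPM per kb, above Aldh1a2 (5.60 ± 0.844), Scarb1 (5.20 ± 2.95), Lrat (3.89 ± 1.36) and Bco1 (2.94 ± 2.57), which overlapped from one to the next. In CONV the first 5 places were the same, with Rbp2 at 4978 ± 1739 CPM per kb (n = 5). Bco1 came after them at 5.97 ± 3.48 CPM per kb and overlapped Aldh1a2 below it. In FLASH Rbp2 stood at 5453 ± 1751 CPM per kb (n = 7), and Aldh1a1 (134 ± 23.5) came before Isx (111 ± 29.5), which overlapped it. Bco1, last in controls, came after Dhrs3 in FLASH at 16.4 ± 6.38 CPM per kb with no overlap with Scarb1 below it (5.50 ± 1.15). Lrat came last in both irradiated groups, at 2.58 ± 0.801 CPM per kb in CONV and 1.26 ± 0.830 CPM per kb in FLASH. It overlapped the gene above it in each, Scarb1 in CONV and Aldh1a2 in FLASH.

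The 9 genes did not vary as one across the 18 libraries. Taken as deviations from group means, so that group differences play no part, Rbp2 went with Rdh7 (Pearson r = 0.89) and Aldh1a1 (r = 0.79), and Isx went with Dhrs3 (r = 0.83). Rbp2 and Isx had r = 0.18 on that measure, and Scarb1 and Rbp2 had r = -0.51. These are descriptions over libraries that also share depth, composition and length trend. Among 10281 genes with a mean of at least 5 CPM, those most like Rbp2 in log2 CPM over the 18 libraries were Ppa1 (r = 0.99), Apoa4 (r = 0.98) and Gsta4 (r = 0.98). Apoa4 is an apolipoprotein of chylomicrons and one of the villus markers above. On deviations from group means they were Fabp1, Golt1a and Ppa1 (r = 0.97 each). Isx was most like the heme exporter Flvcr1 (r = 0.98), Deaf1 (r = 0.96) and Tkfc (r = 0.95), and on deviations like Cdc14a (r = 0.95), Flvcr1 (r = 0.94) and Acot4 (r = 0.92).

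The genes nearest to the other members differed from one to the next. Aldh1a1 was most like Cyp3a11 and Cyp2c66 (r = 0.96 each) and Bcl2l1 (r = 0.95) in log2 CPM, and on deviations like Fbp2 and Scp2 (r = 0.88 each) and Cyp2c65 (r = 0.87). Aldh1a2 was most like Sept6 and Clpb (r = 0.94 each) and the macrophage gene Adgre1 (r = 0.93), and on deviations like Sept6 (r = 0.84), Clpb (r = 0.83) and the stromal gene Efemp1 (r = 0.81). Scarb1 was most like the endothelial gene Plvap and Rcsd1 (r = 0.90 each) and Afap1l1 (r = 0.87), and on deviations like Apoe (r = 0.92), Plvap and Crip2 (r = 0.89 each). Scarb1 is thus near a different set of genes from the enterocyte genes that Rbp2 is near. Bco1 was most like Ubxn2a (r = 0.91), Tec and Vwa1 (r = 0.90 each), and on deviations like Fam126b (r = 0.82), Mark3 (r = 0.80) and Ubxn2a (r = 0.78). Lrat was most like St6galnac2 (r = 0.95), Ikbip and Tmtc4 (r = 0.94 each), and on deviations like St6galnac2 (r = 0.91), Bche (r = 0.90) and Ikbip (r = 0.89). Rdh7 was most like Upb1 (r = 0.96), Dhrs4 (r = 0.95) and Tmem230 (r = 0.93), and on deviations like Adtrp and Acaa2 (r = 0.95 each). Dhrs4 is another short-chain dehydrogenase that acts on retinal. Dhrs3 was most like Sbk1 (r = 0.89), Slc25a42 (r = 0.87) and Grb7 (r = 0.86), and on deviations like Slc2a8 (r = 0.88) and Rap2a (r = 0.87).

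Around the 9 genes, 75 other genes of the pathway were listed by role, of which 66 were tested. Of these, 13 rose and 5 fell in CONV against control (median log2 difference 0.14), 23 rose and 10 fell in FLASH against control (median 0.26), and 13 were higher and 2 lower in FLASH than in CONV (median 0.24). Read against the shares of all genes above, the retinol dehydrogenases and retinal reductases held 7 higher and 0 lower of 18 in CONV and 10 higher and 0 lower of 18 in FLASH. Genes known to respond to retinoic acid held 0 higher and 4 lower of 10 in CONV, and 0 higher and 5 lower of 10 in FLASH. Isx and Dhrs3, which retinoic acid also induces, are members and so outside that list. Isx rose in both groups and Dhrs3 in FLASH. By edgeR at an unadjusted p under 0.05, 1 dehydrogenase was lower in CONV and 0 in FLASH, and 0 listed responsive genes were higher in either. DESeq2, limma-voom and limma-trend also gave 0 for each of these. With library totals in place of TMM factors, 6 dehydrogenases were higher and 1 lower in CONV and 7 higher and 2 lower in FLASH, and with an offset for transcript length 7 and 1, and 9 and 1. Without control 6, 31 of these pathway genes passed in CONV against control in place of 18.

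**Figure D4:**
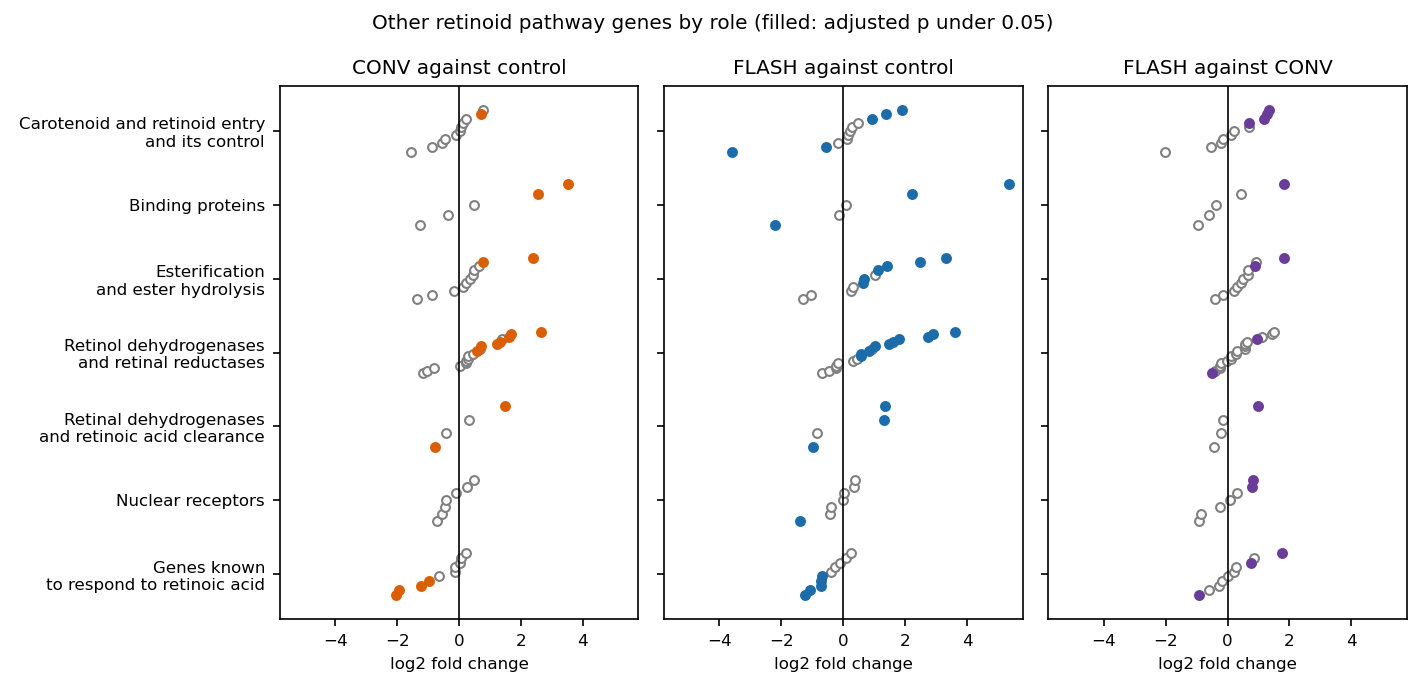
Log2 fold change (horizontal axis) of the 66 tested pathway genes by role, in 3 panels for CONV against control, FLASH against control and FLASH against CONV, with filled points for an adjusted p under 0.05. No retinol dehydrogenase passed below 0 in the 2 panels against control, and no retinoic acid responsive gene passed above 0 in them.

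Of 11 genes for entry and its control, 1 rose and 0 fell in CONV, 3 rose and 2 fell in FLASH, and 4 were higher and 0 lower in FLASH than in CONV. Cd36, a receptor for fatty acids and carotenoids, averaged 66.0 ± 22.8 CPM in controls (SD, n = 6) and 244 ± 49.0 CPM in FLASH (n = 7), rose there by 1.89 ± 0.23 (adjusted p = 9.9e-06), and was higher in FLASH than in CONV by 1.17 ± 0.24 (adjusted p = 0.00336). In CONV it rose by 0.71 ± 0.24 (adjusted p = 0.0425), a call lost without any one of control 1, 2, 3 or 5, CONV 2, 5 or 6 or FLASH 4 (log2 differences from 0.56 to 0.73, adjusted p from 0.0537 to 0.146). Abcg5 and Abcg8, the partner subunits of the sterol exporter of the brush border, rose in FLASH by 0.93 ± 0.16 and 1.37 ± 0.16. Both were also higher in FLASH than in CONV, Abcg8 by 1.29 ± 0.17 (adjusted p = 1.9e-04) and Abcg5 by 0.70 ± 0.17 (adjusted p = 0.00923). Abca1, the lipid exporter of the basolateral side, was higher in FLASH than in CONV by 1.35 ± 0.39 (adjusted p = 0.0223), a call lost without any one of CONV 2, 6 or 7 or FLASH 7 (0.98 to 1.28, adjusted p from 0.0519 to 0.0634). Stra6, a retinol receptor, fell by 3.58 ± 1.14 in FLASH (adjusted p = 0.0194), but its control mean of 2.26 ± 3.96 CPM came mostly from 1 library at 10.2 CPM, and without control 2 the value was -1.81 (adjusted p = 0.186). Stra6l fell by 0.56 ± 0.19 in FLASH (adjusted p = 0.0226), a call lost without control 2 (-0.41, adjusted p = 0.0821) or control 5 (-0.48, adjusted p = 0.0614).

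Of 5 tested binding proteins, 2 rose and 0 fell in CONV, 2 rose and 1 fell in FLASH, and 1 was higher in FLASH than in CONV. Ttr, the plasma partner of retinol-binding protein, stood at 1.40 ± 0.516 CPM in controls and rose to 16.3 ± 17.7 CPM in CONV (3.53 ± 0.61, adjusted p = 7.1e-04) and 57.7 ± 32.0 CPM in FLASH (5.37 ± 0.63, adjusted p = 5.9e-06). The CONV rise was 2.62 without CONV 2, 2.85 with limma-voom and 2.93 with limma-trend. FLASH was above CONV by 1.83 ± 0.56 (adjusted p = 0.0289), which was lost without any one of CONV 3, 5, 6 or 7 or FLASH 6 or 7 (1.54 to 1.77, adjusted p from 0.0516 to 0.0684) and was 2.75 without CONV 2. Alb, the defining liver transcript, was at most 0.209 CPM in any library. Rbp7, a carrier known from fat and endothelium, fell by 2.20 ± 0.46 in FLASH (adjusted p = 0.00111).

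Of 11 tested genes of esterification and ester hydrolysis, 2 rose in CONV, 6 rose in FLASH and 2 were higher in FLASH than in CONV, with 0 lower in each (by edgeR at an unadjusted p under 0.05, 0, 1 and 0 lower; by DESeq2 also 0, 1 and 0). The carboxylesterase Ces1d, which can act on retinyl esters, stood at 8.39 ± 2.57 CPM in controls and rose to 47.0 ± 18.2 CPM in FLASH (2.49 ± 0.28, adjusted p = 3.8e-06) and was higher there than in CONV by 1.82 ± 0.29 (adjusted p = 7.0e-04). Ces1g rose by 2.40 ± 0.50 in CONV (adjusted p = 0.00319) and 3.32 ± 0.50 in FLASH (adjusted p = 5.8e-05), or 3.12 and 4.04 without control 6. Ces2c rose by 1.41 ± 0.23 in FLASH (adjusted p = 1.5e-04). In CONV it rose by 0.76 ± 0.25 (adjusted p = 0.0348), lost without any one of control 1, 2, 3 or 5 or CONV 2, 5 or 6 (0.64 to 0.79, adjusted p from 0.0522 to 0.107). Ces2a rose by 1.11 ± 0.22 in FLASH (adjusted p = 8.3e-04) and was above CONV by 0.90 ± 0.24 (adjusted p = 0.0133). Lrat was lower and these hydrolases, named because they passed, were higher in the same FLASH libraries. Dgat1, an acyltransferase also listed there, was not lower. It averaged 419 ± 91.5 CPM in controls, 581 ± 35.4 CPM in CONV and 522 ± 101 CPM in FLASH. Lpl, of the same list, averaged 12.2 ± 6.60 CPM in controls and 4.95 ± 3.76 CPM in FLASH and did not pass. Plb1, the brush border phospholipase that can hydrolyse retinyl esters, ranged from 22.6 to 738 CPM in controls, 0.993 to 271 CPM in CONV and 0.0810 to 670 CPM in FLASH and passed in no comparison.

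Among the 18 tested retinol dehydrogenases and retinal reductases, Akr1b8, a reductase of the aldo-keto family, stood at 4.80 ± 0.976 CPM in controls and rose to 30.1 ± 13.2 CPM in CONV (2.65 ± 0.30, adjusted p = 1.4e-05) and 58.3 ± 20 CPM in FLASH (3.60 ± 0.30, adjusted p = 1.6e-07). It was higher in FLASH than in CONV by 0.96 ± 0.28 (adjusted p = 0.0229), lost without CONV 3 or 7 or FLASH 2 (0.77 to 0.89, adjusted p from 0.0506 to 0.0604). Dhrs9 rose by 1.24 ± 0.30 in CONV (adjusted p = 0.00735) and 1.79 ± 0.28 in FLASH (adjusted p = 9.5e-05). Rdh16 rose by 1.33 ± 0.32 in CONV (adjusted p = 0.00813), and Adh5 by 0.59 ± 0.16 (adjusted p = 0.0132). In FLASH Akr1b7 rose by 2.91 ± 0.53 (adjusted p = 3.6e-04) and Adh1, an alcohol dehydrogenase that oxidises retinol, by 2.75 ± 0.51 (adjusted p = 3.9e-04), or 3.54 and 3.45 without control 6. Rdh13 was lower in FLASH than in CONV by 0.51 on the log2 scale (log2 difference -0.51 ± 0.17, adjusted p = 0.0435). That call was lost without any one of control 1 to 5, without CONV 2, 6 or 7, and without FLASH 1, 2, 5, 6 or 7 (-0.53 to -0.40, adjusted p from 0.0513 to 0.133).

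Of the 4 other tested genes of retinal oxidation and retinoic acid clearance, Aldh1a7 rose by 1.49 ± 0.25 in CONV (adjusted p = 6.6e-04) and 1.36 ± 0.24 in FLASH (adjusted p = 2.5e-04). Aldh1a3, another retinal dehydrogenase, rose in FLASH by 1.32 ± 0.19 (adjusted p = 4.2e-05) and was higher there than in CONV by 0.99 ± 0.20 (adjusted p = 0.00292), at 35.9 ± 10.2, 45.1 ± 5.47 and 89.7 ± 22.4 CPM in control, CONV and FLASH. Aldh1a3 was thus higher with Aldh1a1 in FLASH, while Aldh1a2 was lower. Cyp2s1, which can oxidise retinoic acid, fell by 0.78 in CONV (log2 difference -0.78 ± 0.19, adjusted p = 0.00800) and by 0.98 in FLASH (-0.98 ± 0.17, adjusted p = 2.4e-04). Cyp26b1, the other clearance enzyme tested, passed in no comparison.

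Of 7 tested nuclear receptors, 0 passed by edgeR in CONV against control, where 1 was higher and 2 lower at an unadjusted p under 0.05 and DESeq2 called 1 lower. Rarb, a retinoic acid receptor whose gene retinoic acid induces, fell by 1.39 in FLASH (-1.39 ± 0.36, adjusted p = 0.00572), from 2.03 ± 0.810 to 0.772 ± 0.298 CPM. Rxra, the shared partner of these receptors, and Ppard were higher in FLASH than in CONV, by 0.80 ± 0.20 (adjusted p = 0.00953) and 0.81 ± 0.21 (adjusted p = 0.0117). With library totals in place of TMM factors both calls were lost (0.63 each, adjusted p = 0.0533 and 0.0660). Of 10 genes known to respond to retinoic acid, Ccr9, the gut-homing chemokine receptor of lymphocytes, fell by 2.02 in CONV (-2.02 ± 0.31, adjusted p = 3.1e-04) and was higher in FLASH than in CONV by 1.76 ± 0.31 (adjusted p = 0.00114). Its levels were 9.56 ± 1.39 CPM in controls, 2.35 ± 1.20 CPM in CONV and 7.96 ± 2.34 CPM in FLASH, where the difference from control was -0.26 ± 0.27 (adjusted p = 0.466). Itga4, the integrin chain of gut homing, fell in CONV (-1.94 ± 0.39, adjusted p = 0.00250; -1.27 with an offset for transcript length) and in FLASH (-1.08 ± 0.34, adjusted p = 0.0187), the latter lost without control 2 (-0.69, adjusted p = 0.0963). Hic1 fell by 1.24 in both (-1.24 ± 0.33, adjusted p = 0.0145 in CONV; -1.24 ± 0.30, adjusted p = 0.00346 in FLASH). Rarres2 fell in FLASH (-0.71 ± 0.19, adjusted p = 0.00703) and was below CONV (-0.93 ± 0.20, adjusted p = 0.00396). Ccr9 and Itga4 are lymphocyte genes, and the number of lymphocytes in these samples was not measured.

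The weakest calls in that list were those of Tgm2, Ncoa7 and Nrip1. Tgm2, a transglutaminase, fell in CONV (-0.96 ± 0.28, adjusted p = 0.0224), lost without control 4 or CONV 2 or 6 (-0.85 to -0.80, adjusted p from 0.0517 to 0.0717). In FLASH it fell too (-0.69 ± 0.25, adjusted p = 0.0386), lost without any one of control 1 to 5 or FLASH 1, 4, 5, 6 or 9 (-0.70 to -0.58, adjusted p from 0.0545 to 0.0957). Ncoa7 fell in FLASH (-0.72 ± 0.25, adjusted p = 0.0269), lost without any one of control 2 or 6 or FLASH 2 or 6 (-0.70 to -0.54, adjusted p from 0.0519 to 0.0693). Nrip1, a corepressor of nuclear receptors, was higher in FLASH than in CONV by 0.76 ± 0.24 (adjusted p = 0.0325), lost without any one of CONV 2, 6 or 7 or FLASH 2, 6 or 7 (0.61 to 0.76, adjusted p from 0.0538 to 0.0930).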

How the data were processed

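Per the labels' protocols, the 18 libraries were made from 250 ng of whole-jejunum RNA by a stranded mRNA ligation kit and read on one end for 100 bp. Groups and replicate numbers come from the labels. STAR, Salmon, edgeR 3.40.2, limma 3.54.2 and build mm10 are named in the submitters' processing notes, with no versions for STAR and Salmon. The table the authors deposited for 54532 genes holds expected counts (estimated counts per gene, not normalized), which were rounded here. A table of log2 values that the authors normalized and deposited (19193 genes) served only as an alternative. In every library its values differed from log2 counts by a constant (SD over 11270 genes at most 0.00537). Where genes lie on mm10 and their transcript lengths come from GENCODE M21, and promoter windows from RefSeq.

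Genes kept by filterByExpr (16257) were scaled with TMM and fitted once over the 18 libraries by edgeR 4.0.16 in R 4.3.3, using the robust quasi-likelihood test and Benjamini-Hochberg adjustment. SE was obtained by dividing the size of a log2 fold change by the root of its F, and 95% intervals use the t quantile of the fit. Correlations were computed on log2 CPM (prior count 2). The members, the gene and marker lists, the tests and the alternatives were chosen with earlier results of these data known. Named were all 9 members, all genes that passed in a pathway list with 5 or fewer such genes in a comparison and otherwise the 4 with the smallest p, and the 3 genes most like each member. A few genes that this rule names are not reported here. Alternatives were other scalings, filters and tests (DESeq2 1.42.0, limma 3.58.1), only the groups compared, a replicate block, an offset for transcript length and leaving out libraries. Tested on simulated data for CONV against control (16036 genes), the pipeline recovered 44% of 2-fold and 97% of 4-fold changes, and 2.76% of its calls were false. The simulated counts had no length trend between libraries and far fewer changed genes than passed in the real data. These rates therefore need not hold for the real libraries. No libraries were duplicates (lowest chi-square per degree of freedom 25.15). Deviations of same-numbered libraries correlated from -0.27 to 0.61 (highest in control 6 with CONV 6), not above 0.1 in every pair, so numbers were not taken as pairs. Untested for low counts were Aldh8a1, Crabp1, Crabp2, Cyp26a1, Cyp26c1, Pnlip, Rdh19, Rxrg and Sdr16c5.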

Additional observations from a re-analysis of the deposited data

Results flagged for a closer look

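Of 27 groups (9 genes in 3 groups of libraries), 1 held a library far from its others: Scarb1 in control 2, at 4.76 log2 CPM. Chance flags about 1 group in 20. The next highest control stood at 3.55 log2 CPM, and without control 2 the Scarb1 difference in FLASH against control was 0.48 (adjusted p = 0.0447), against 0.08 (adjusted p = 0.821) with it. The same library had the lowest villus marker sum and the highest dendritic and fibroblast marker sums of the controls (18543, 83.9 and 1046 CPM). The part of these cell types in the Scarb1 value was not tested.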

How the results depend on the processing

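Under each of the 30 alternatives, Rbp2 and Isx passed in both comparisons with control and Bco1, Lrat, Aldh1a1 and Aldh1a2 in FLASH against control, all in the direction reported; Dhrs3 did so under 28 and Aldh1a1 in CONV under 10. For named members, 723 values kept direction and side of the threshold, 39 lost the call, 43 gained it and 5 changed sign. The last were Scarb1 in FLASH against control with library totals (-0.32), with the length offset (-0.07) and without control 6 (-0.02), and, in FLASH against CONV, Dhrs3 with library totals (-0.01) and Rbp2 without CONV 3 (-1.9e-03). Leaving out single libraries took Scarb1 in FLASH against control from -0.02 to 0.48 (without control 2) and Rbp2 in FLASH against CONV from -1.9e-03 to 0.35. None of the 5 had passed the threshold. For the other pathway genes named, which had all passed and so could not gain a call, 1544 values kept their side and 105 lost the call.

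In CONV against control, 5 members passed without control 6, CONV 6 and FLASH 1 together, and 2 to 6 as single libraries were left out. In FLASH against CONV, 2 passed with DESeq2 size factors, with library totals, with a mean of at least 1 CPM or with limma-voom, 0 with all genes of at least 1 count, 3 with limma-trend, with only the groups compared or without those 3 libraries, and 4 with the DESeq2 Wald test or the length offset. As single libraries were left out, 0 to 5 did. Over all genes in CONV against control, 1869 (without CONV 6) to 6493 (without control 6) passed in place of 3615, with 2277 without control 2, 2359 without control 5 and 2171 without CONV 2. Other pathway genes passing there ranged from 12 to 31, and in FLASH against CONV numbered 23 with the length offset in place of 15. The cause was not tested.

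Fitted with a replicate block, 0 members and 1569 of all genes passed in FLASH against CONV, in place of 1 and 3217. FLASH 9 shares its number with no other library and adds nothing to that fit. In both comparisons with control the block left the counts of members at 3 and 7. Library totals moved the median of all genes to -0.25, -0.44 and -0.18 and the share of calls that were higher to 24.2, 17.4 and 24.4%, from 46.0, 44.3 and 49.9% (CONV against control, FLASH against control, FLASH against CONV). The length offset gave 35.7, 37.9 and 50.1%. The relation of Isx to Bco1 in FLASH was r = -4.5e-03 without the 2 libraries farthest from the median of Isx. That of Isx to Scarb1 in controls was r = 0.08 with library totals and 0.18 without such libraries.

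Groups with a library under 100 estimated counts were Bco1 in controls (60.0 to 380) and CONV (87.0 to 555), Lrat in FLASH (67.0 to 284) and Aldh1a2 in CONV (76.0 to 353) and FLASH (89.0 to 148).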
